A study of Mus musculus with 10 samples.

Results

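miR-22-3p is the abundant arm of a microRNA made in heart and skeletal muscle. It was chosen by name, as the row mmu-miR-22-3p, 1 of the 1139 mature mouse miRNAs counted in 10 small RNA libraries of mouse heart. Of these, 5 libraries were labelled CITED4 knockout and 5 floxed control, whose gene is flanked by recombination sites without being deleted. CITED4 is a transcriptional co-regulator. All mice were male C57Bl6N and all hearts were taken 1 week after transverse aortic constriction, an operation that narrows the aorta and loads the left heart with pressure, so the operation was shared by every library and its own effect was not analysed here. The promoter that drives the recombinase is not given in the sources used here, and miRNA counts hold no CITED4 messenger RNA, so each genotype is taken from its label. Whether the 5 libraries of a group are 5 animals is not stated, so a p-value measures only how these libraries vary, and that variation may be technical.

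A miRNA hairpin is cut into a pair of arms, and the arm loaded into an Argonaute protein represses messenger RNAs that match its seed, the bases 2 to 8 from its 5′ end. miR-22 is known in mice as a miRNA that promotes hypertrophy of heart muscle cells: its loss blunts growth of the heart under stress, and its excess enlarges it. Sirt1, a deacetylase, and Hdac4, a histone deacetylase, are among its reported heart targets.

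The hairpin Mir22 lies on chromosome 11, from 75463716 to 75463810 on the plus strand (GRCm38.p6, RefSeq). In GENCODE release M21 on the same build it lies within exon 2 of both annotated transcripts of the noncoding RNA Mir22hg, and within exon 2 of 1 noncoding transcript of Tlcd2 on the same strand. The closest annotated hairpins are Mir3971, 87.6 kb away, and Mir132, 290.0 kb away, so Mir22 has no annotated neighbour within 87.6 kb. The hairpin is shown because the data count both of its arms, which are in capitals.
Mir22 hairpin: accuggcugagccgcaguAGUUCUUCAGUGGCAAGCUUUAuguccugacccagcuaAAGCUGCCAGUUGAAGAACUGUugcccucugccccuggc
The 5p arm takes positions 19 to 40 and the 3p arm positions 57 to 78 of the 95 bases, with 16 bases between them. The mature sequences follow, from RefSeq on GRCm38.p6, with the seed in capitals.
miR-22-3p: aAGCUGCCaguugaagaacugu
miR-22-5p: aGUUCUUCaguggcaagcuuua
Among 1679 mature mouse miRNAs in the RefSeq table, 0 others had the seed of miR-22-3p, and 0 had the same bases at positions 2 to 7. The seed of miR-22-5p was also shared with 0 others, but 2 others had its bases at positions 2 to 7.

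The libraries held 8909932 to 18369483 miRNA counts in the knockout group and 7526091 to 11608900 in the control group. Of the 1139 miRNAs, 457 passed the filterByExpr filter on low counts and were tested. Levels are given as TMM-scaled CPM, counts relative to a library total corrected by the trimmed mean of M-values. The muscle miRNA miR-1a-3p was the most abundant miRNA in 10 of 10 libraries and made up 97.6% to 98.8% of the summed level of 7 muscle miRNAs, which was 220874 to 387133 CPM in knockouts and 242943 to 504592 CPM in controls. In whole hearts, fewer cells of a type and less of a miRNA per cell cannot be told apart. Control replicate 3, the shallowest library, stood apart for miR-22-3p, as did knockout replicate 4, and values that rest on them are given with and without them.

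The level of miR-22-3p was lower on average in knockout hearts, but the difference was within the spread between libraries. It was at 4278, 3920, 3811, 6183 and 3581 CPM in knockout replicates 1 to 5, against 4066, 3978, 9362, 5045 and 5704 CPM in control replicates 1 to 5. The groups overlapped: knockout replicate 4 was above 4 of the 5 controls, while control replicate 3 was above all other libraries. The mean was 4355 ± 1052 CPM in knockouts and 5631 ± 2205 CPM in controls (SD, n = 5 each). The knockout level was 0.773 of the control level, or -0.37 ± 0.24 (SE) as a log2 fold change, and the 95% interval ran from -0.89 to 0.15. In edgeR's quasi-likelihood test across all 457 miRNAs the p was 0.15 before adjustment and 0.64 after it. In linear terms the interval ran from 0.540 to 1.11 of the control level, so a moderate decrease and no change both lie within it.

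Control replicate 3 set most of that difference. Without it the log2 fold change was -0.08, with an adjusted p of 0.87, and without knockout replicate 4 it was -0.52, with an adjusted p of 0.34 in edgeR's test. Without both libraries, a choice made after seeing the data, it was -0.25 with an adjusted p of 0.50. As background, 0 of the 457 miRNAs passed at an adjusted p of 0.05 (0%), and 29 (6.35%) had an unadjusted p under 0.05. With DESeq2 0 of 1105 passed and 45 (4.07%) had such a p, and with limma-voom 0 of 457 passed and 23 (5.03%) had one. By its p, miR-22-3p stood at place 98 of the 457.

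**Figure D1:**
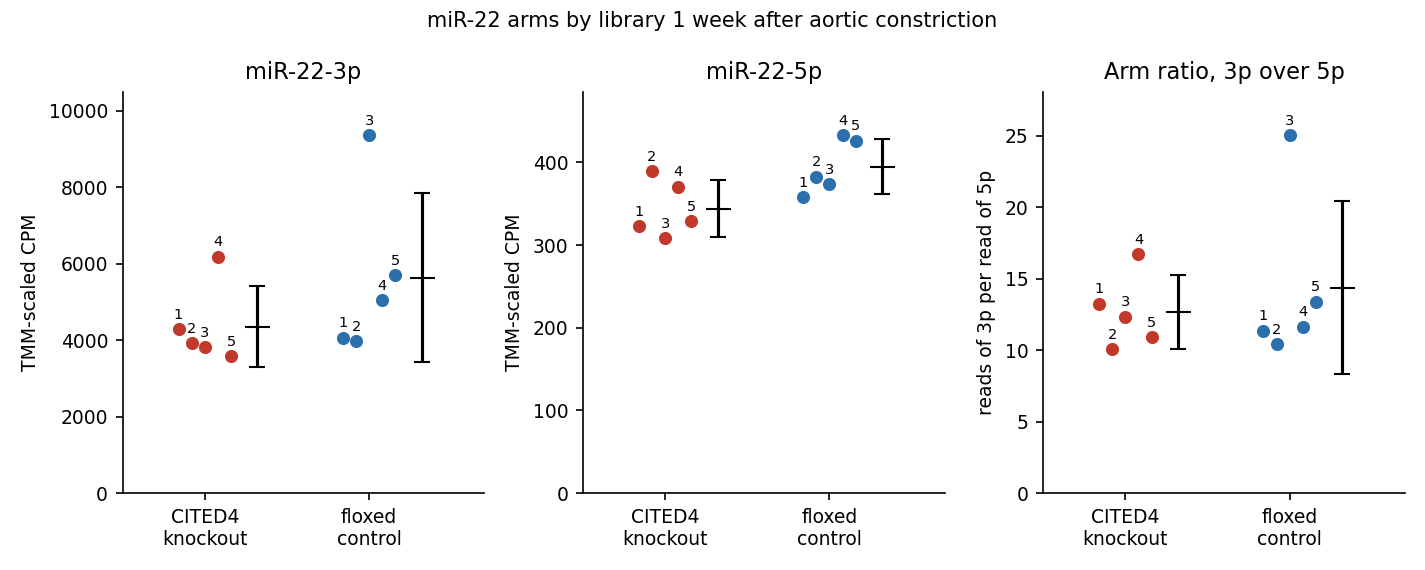
TMM-scaled CPM of miR-22-3p (left) and miR-22-5p (middle), and reads of the 3p arm per read of the 5p arm (right), in 5 CITED4 knockout and 5 floxed control libraries. Points are libraries labelled with their replicate number and bars are the mean ± SD. Control replicate 3 is highest for miR-22-3p (9362 CPM) and for the arm ratio (25.0), but not for miR-22-5p (374 CPM).

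miR-22-5p, the less abundant arm of the same hairpin, was far steadier. It was at 323, 389, 309, 370 and 329 CPM in knockout replicates 1 to 5, against 358, 382, 374, 433 and 426 CPM in control replicates 1 to 5. On this TMM scale, 3 of the knockout libraries were below every control, and 5 of 5 were below the control mean. The mean was 344 ± 34.2 CPM in knockouts and 395 ± 33.2 CPM in controls (SD, n = 5 each). Its log2 fold change was -0.20 ± 0.12 (SE). Its 95% interval ran from -0.46 to 0.06, and its p in edgeR's quasi-likelihood test was 0.12 before and 0.64 after adjustment. With library totals only, its log2 fold change was -0.07 (unadjusted p = 0.69 in the same test), so the size of this difference rests on the scaling.

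The arms did not vary alike from library to library. On the log2 CPM scale, the SD of miR-22-3p was 0.31 in knockouts and 0.50 in controls, while that of miR-22-5p was 0.14 in knockouts and 0.12 in controls. The 3p arm had 13.3, 10.1, 12.4, 16.7 and 10.9 reads per read of the 5p arm in knockout replicates 1 to 5, against 11.4, 10.4, 25.0, 11.7 and 13.4 in control replicates 1 to 5. Thus 9 of 10 libraries held 10.1 to 16.7 reads of miR-22-3p per read of miR-22-5p, and control replicate 3 held 25.0. The log2 ratio averaged 3.64 ± 0.28 in knockouts and 3.76 ± 0.51 in controls (SD, n = 5 each), a difference of -0.12 that was within the spread (exact two-sided permutation test, p = 0.71). Without control replicate 3 the difference was 0.10 and lay in the other direction (exact permutation test, p = 0.60). A ratio of arms of 1 hairpin is free of the scaling between libraries, so control replicate 3 stands apart in it whatever scaling is used.

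As a share of all miRNA counts, miR-22-3p took 0.522%, 0.448%, 0.345%, 0.607% and 0.356% in knockout replicates 1 to 5, against 0.459%, 0.390%, 1.06%, 0.398% and 0.468% in control replicates 1 to 5. Control replicate 3 was the highest and knockout replicates 3 and 5, the deepest libraries, were the lowest. The 95% exact binomial interval of control replicate 3 was 1.06% to 1.07%, and that of knockout replicate 3 was 0.342% to 0.348%, which cover counting error only. The shares averaged 0.455% ± 0.111 in knockouts and 0.556% ± 0.286 in controls (SD, n = 5 each; exact two-sided permutation test, p = 0.67). Without control replicate 3 the knockout mean was higher by 0.0268 percentage points. Each library held 39903 to 80009 reads of miR-22-3p, so counting alone gives a coefficient of variation of 0.354% to 0.501%, far below the spread between libraries.

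By raw count, miR-22-3p ranked 28, 29, 29, 27 and 30 among the 1139 miRNAs in knockout replicates 1 to 5, against 28, 29, 18, 28 and 28 in control replicates 1 to 5. Its rank thus lay between 27 and 30 in every library other than control replicate 3. By mean CPM over all 10 libraries it stood at place 29. In these ranks, rows that repeat the counts of another row are each counted. With such rows used once, the median rank by raw count was 26 in place of 28. Mature miRNAs are of nearly equal length (22 bases for both arms of miR-22), so reads can be set side by side without a length correction, though adapters may be joined to some sequences better than others.

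Its neighbours in abundance were miR-125b-5p, a relative of worm lin-4, and miR-30e-5p, of the miR-30 family, above it, and miR-148a-3p and miR-25-3p below it. miR-125b-5p averaged 6127 CPM over the 10 libraries and was above miR-22-3p in 6 of 10. miR-30e-5p averaged 5375 CPM and was above it in 5 of 10. The mean log2 difference from miR-22-3p was 0.35 ± 0.49 for miR-125b-5p and 0.08 ± 0.36 for miR-30e-5p (SD over libraries). miR-148a-3p averaged 3863 CPM and was below miR-22-3p in 8 of 10 libraries, with a mean log2 difference of -0.32 ± 0.44 (SD over libraries), or -0.19 ± 0.21 without control replicate 3. miR-25-3p averaged 3553 CPM and was below it in 10 of 10 libraries, with a mean log2 difference of -0.43 ± 0.46, or -0.30 ± 0.24 without control replicate 3. Over all 10 libraries each of the 4 differences was smaller than its own SD. Without control replicate 3 this held for miR-30e-5p (0.09 ± 0.38) and miR-148a-3p, but not for miR-125b-5p (0.45 ± 0.39) or miR-25-3p. The neighbours were picked by these same mean levels, so the order is a description without a test.

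**Figure D2:**
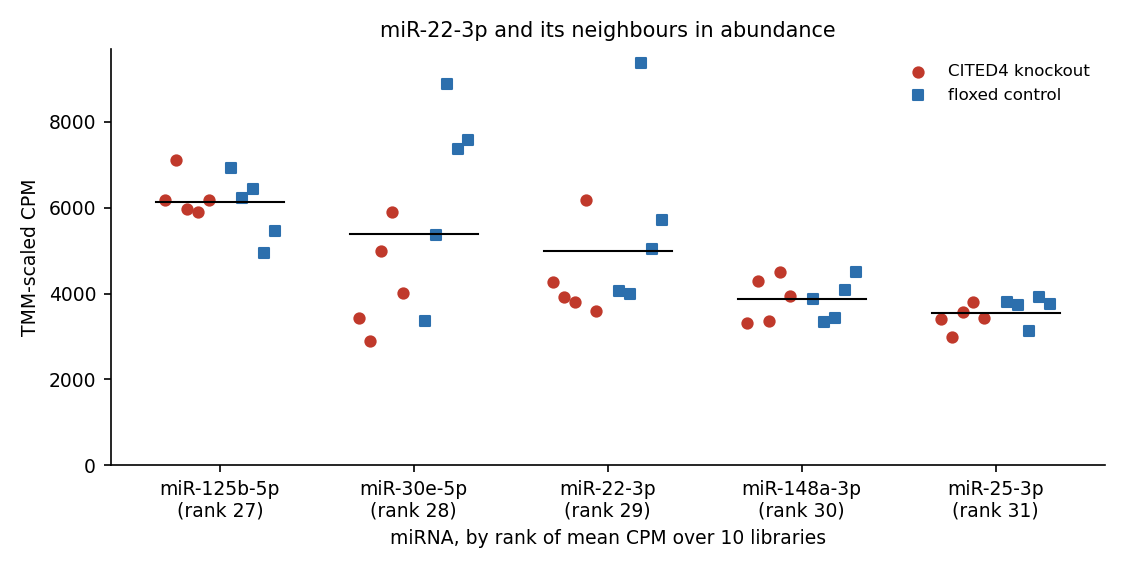
TMM-scaled CPM of miR-22-3p and the 2 miRNAs next above and next below it by mean CPM over 10 libraries. Each point is a library (circles, CITED4 knockout; squares, floxed control) and the line is the mean of all 10. miR-22-3p and miR-30e-5p are spread widely, while miR-25-3p lies between 2993 and 3917 CPM.

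The spread of miR-22-3p was large for a miRNA of its abundance. Its coefficient of variation was 24.2% in knockouts and 39.2% in controls, against medians of 17.5% in knockouts and 20.8% in controls over the 54 miRNAs with a mean of at least 1000 CPM. Among these 54 it ranked 15 in knockouts and 5 in controls. Without knockout replicate 4 the coefficient in knockouts was 7.45%, and without control replicate 3 that in controls was 17.6%. Control replicate 3 held 2.06 times the median of the other controls, the highest such ratio among the 54, followed by miR-29c-3p at 1.63, a miRNA that targets collagen transcripts, and miR-30b-5p at 1.56. The other arm, miR-22-5p, was at 0.925 of that median. Knockout replicate 4 held 1.60 times the median of the other knockouts, which ranked 8 of 54. These comparisons with the 54 miRNAs were chosen after seeing the data.

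Markers of other cell types in those libraries were set beside this. In control replicate 3 the summed erythroid level (3 of 4 markers; miR-451a is not analysed here) was 33016 CPM, the highest of all libraries. Nearly all of it was miR-486a-5p, at 32225 CPM and with the same counts as the row of miR-486b-5p. miR-486a-5p is found in muscle as well as blood, so this erythroid sum is not a measure of blood alone. By contrast, miR-144-3p (510 CPM) ranked 4 of 10 and miR-144-5p (281 CPM) ranked 3 of 10 there. That sum ran from 11532 to 25240 CPM in knockouts and from 13759 to 33016 CPM in controls. The summed fibroblast level of control replicate 3 (3 markers) was 9389 CPM and ranked 9 of 10, in a range of 12331 to 24561 CPM in knockouts and 9183 to 23242 CPM in controls. Its smooth muscle sum (2 markers) was 33049 CPM and ranked 2 of 10, in a range of 26124 to 32865 CPM in knockouts and 27826 to 33670 CPM in controls. Its endothelial sum (2 markers) of 26220 CPM ranked 9 of 10, in a range of 25223 to 34443 CPM in knockouts and 26220 to 35318 CPM in controls. Its leukocyte sum (5 markers) of 1587 CPM ranked 4, in a range of 1386 to 1762 CPM in knockouts and 1562 to 1593 CPM in controls. The members of a sum did not all rank alike in control replicate 3. Leukocyte markers ranked from 2 (miR-142a-5p) to 10 (miR-155-5p), and fibroblast markers from 7 (miR-199a-5p) to 10 (miR-199a-3p). Of the smooth muscle markers, miR-145a-5p ranked 1 and miR-143-3p ranked 3. Knockout replicate 4, the knockout with the most miR-22-3p, had the highest erythroid sum (25240 CPM) and the highest endothelial sum (34443 CPM) among the 5 knockouts, and each erythroid and endothelial marker tested was highest there among knockouts. Its fibroblast sum of 12331 CPM was the lowest of the knockouts, while its smooth muscle sum of 31675 CPM and its leukocyte sum of 1555 CPM each ranked 3 of 5. Of the muscle miRNAs, miR-133a-3p, miR-133b-3p, miR-208a-3p, miR-208b-3p and miR-499-5p were also highest there among knockouts, whereas miR-1a-3p ranked 2 and miR-206-3p ranked 5 of 5. No tested marker was at 0 in any library, and the part of these cells in the level of miR-22-3p was not tested.

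The covariation of miR-22-3p with 7 muscle miRNAs was examined over the 10 libraries. These are miR-1a-3p, miR-133a-3p, miR-133b-3p and miR-206-3p, which control growth and differentiation of muscle, and miR-208a-3p, miR-208b-3p and miR-499-5p, which are made from introns of myosin genes. The sequences of 4 of them are shown because miR-208a-3p and miR-208b-3p share 1 seed, while none has the seed of miR-22-3p.
miR-208a-3p: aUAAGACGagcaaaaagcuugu
miR-208b-3p: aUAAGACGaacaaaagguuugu
miR-499-5p: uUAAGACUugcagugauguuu
miR-206-3p: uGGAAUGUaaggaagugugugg
They lie on chromosomes 14, 14, 2 and 1 of GRCm38.p6 in RefSeq, away from miR-22-3p on chromosome 11.

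miR-22-3p moved together with miR-133a-3p, miR-133b-3p and miR-208a-3p. miR-133a-3p was at 1014, 994, 1329, 1469 and 1079 CPM in knockout replicates 1 to 5, against 1246, 1267, 1970, 1756 and 1861 CPM in control replicates 1 to 5. Control replicates 3, 4 and 5, the controls with the most miR-22-3p, also held the most miR-133a-3p, and knockout replicate 4 held the most among knockouts. Over 10 libraries Pearson's r was 0.80 (permutation p = 0.0032, adjusted over 7 relations p = 0.011) and Spearman's rho was 0.71 (permutation p = 0.027, adjusted p = 0.095). For miR-133b-3p, whose sequence is so close to that of miR-133a-3p that reads may be split between them, r was 0.78 (permutation p = 0.0051, adjusted p = 0.012) and rho was 0.71 (permutation p = 0.027, adjusted p = 0.095).

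miR-208a-3p, made from the adult myosin gene Myh6, was at 303, 508, 468, 571 and 306 CPM in knockout replicates 1 to 5, against 286, 422, 932, 685 and 692 CPM in control replicates 1 to 5. The library with the highest level was again control replicate 3, and knockout replicate 4 was again the highest knockout. Its r with miR-22-3p was 0.80 (permutation p = 0.0032, adjusted p = 0.011) and its rho was 0.64 (permutation p = 0.055, adjusted p = 0.096). Thus 3 of 7 relations passed by Pearson's r at an adjusted p of 0.05 and 0 of 7 by rank. By the same permutation test, 58 of 140 miRNAs with a mean of at least 100 CPM (41.4%) had an unadjusted p under 0.05, beside 4 of the 7, and 41 (29.3%) passed with p adjusted over the 140, beside 3 of the 6 muscle miRNAs among them. Many miRNAs outside the muscle list thus met the same criterion, in a count added after seeing the data.

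Without the 2 libraries farthest from the median of miR-22-3p, control replicate 3 and knockout replicate 4, r over the other 8 was 0.82 for miR-133a-3p, 0.80 for miR-133b-3p and 0.70 for miR-208a-3p. The permutation p values were 0.020, 0.024 and 0.051, and the adjusted p values were 0.057, 0.057 and 0.071, so 0 of 7 relations passed. Without control replicate 3 alone the count was also 0, at r of 0.74, 0.73 and 0.69 in the same order. The sizes of these correlations were thus kept, but the calls rested on control replicate 3. On deviations from the group means, which take out the genotype, r was 0.78, 0.74 and 0.77 (permutation tests, adjusted p = 0.021 for each of the 3). These 3 relations passed there with control replicate 3 kept, so this does not free the calls from that library. The deviations were shuffled across both groups and not within each, so these p values are approximate and may be too small.

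miR-1a-3p, the most abundant miRNA of these hearts, did not follow this pattern in all libraries. It was at 221972, 217084, 382310, 361491 and 316737 CPM in knockout replicates 1 to 5, against 238883, 312951, 243301, 497444 and 463625 CPM in control replicates 1 to 5. Control replicate 3, the highest for miR-22-3p, was among the 4 lowest libraries for miR-1a-3p. Its r was 0.08 (permutation p = 0.83) over 10 libraries and 0.60 without the 2 farthest (permutation p = 0.12, adjusted p = 0.14). Its sign turned with the scaling: r was -0.29 with library totals only and -0.26 with totals that leave out the 5 most abundant miRNAs.

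miR-499-5p, made from the myosin gene Myh7b, was at 1837, 1820, 2396, 3815 and 2013 CPM in knockout replicates 1 to 5, against 2018, 2127, 2400, 4054 and 4418 CPM in control replicates 1 to 5. Knockout replicate 4 and control replicates 4 and 5 were high, whereas control replicate 3 was close to the low libraries. Its r was 0.48 (permutation p = 0.16, adjusted p = 0.22) over 10 libraries and 0.87 without control replicate 3 (permutation p = 0.0097, adjusted p = 0.063). In the remaining 9 libraries it ranked 3 among 140 abundant miRNAs by its r with miR-22-3p, against rank 46 with all 10.

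miR-208b-3p comes from Myh7, the fetal myosin gene, and was at 151, 226, 276, 296 and 204 CPM in knockout replicates 1 to 5, against 202, 163, 244, 155 and 143 CPM in control replicates 1 to 5. Its r with miR-22-3p was 0.18 (permutation p = 0.64) over 10 libraries, and -0.71 without the 2 farthest (permutation p = 0.042, adjusted p = 0.071). miR-206-3p, the skeletal muscle miRNA, was low at 11.0 to 26.9 CPM over the 10 libraries. Its r was -0.66 (permutation p = 0.049, adjusted p = 0.085), and 0.24 without the 2 farthest.

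**Figure D3:**
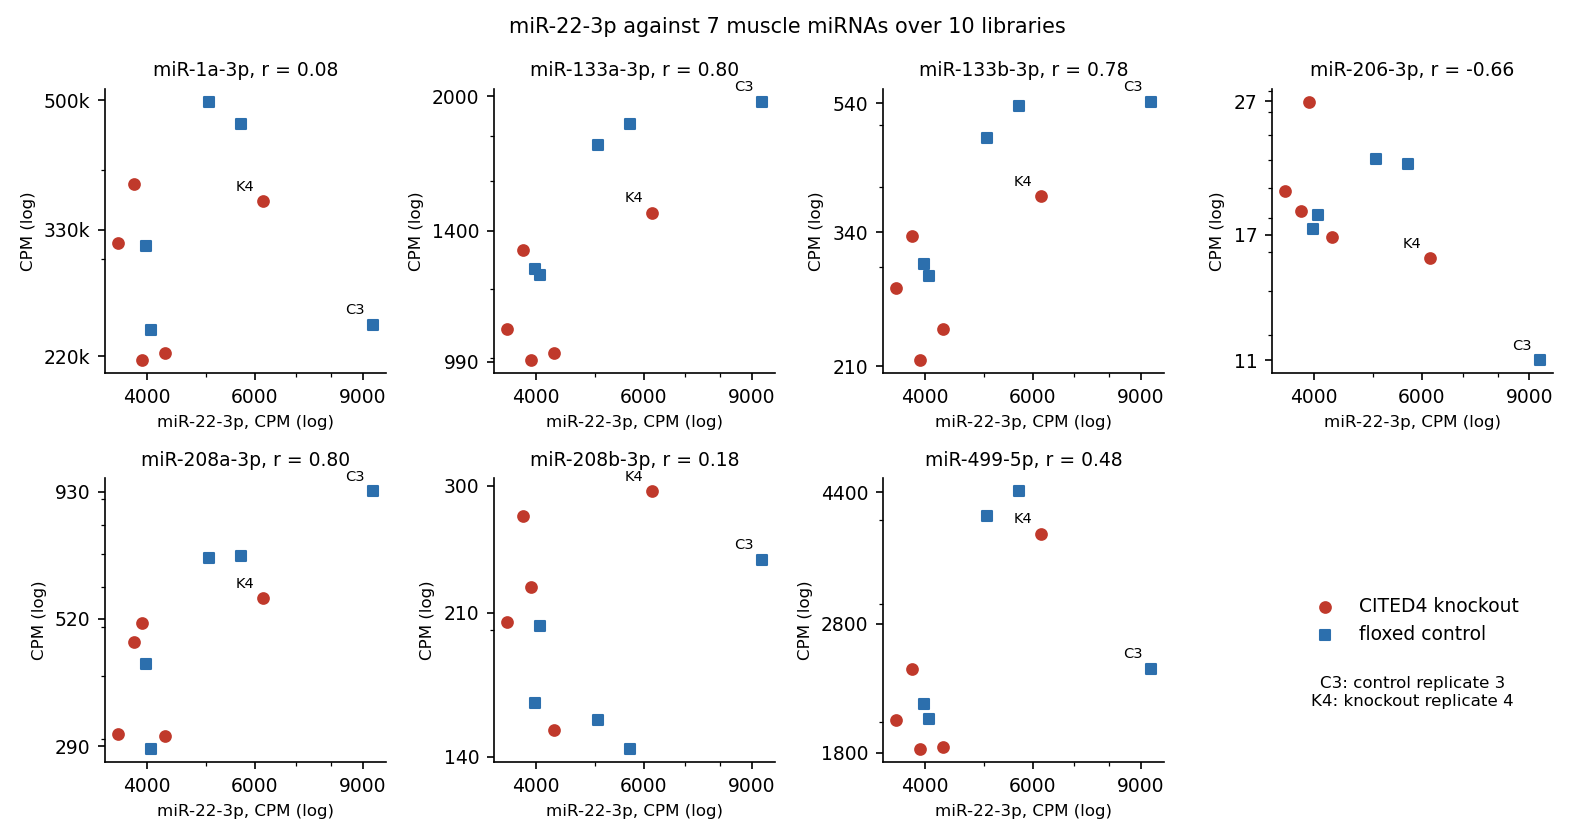
TMM-scaled CPM of each of 7 muscle miRNAs against that of miR-22-3p in 10 libraries, on log axes, with Pearson's r of log2 CPM above each panel. Circles are CITED4 knockout and squares floxed control libraries. Control replicate 3 (C3) lies at the upper right for miR-133a-3p, miR-133b-3p and miR-208a-3p, is the lowest for miR-206-3p, and ranks 7 of 10 for miR-1a-3p and 4 of 10 for miR-499-5p.

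The ratio of miR-22-3p to each muscle miRNA within a library, which is free of scaling, passed a test between the groups in 0 of 7 cases after adjustment. The closest was miR-208b-3p: the log2 ratio of miR-22-3p to it averaged 4.25 ± 0.39 in knockouts and 4.91 ± 0.43 in controls (SD, n = 5 each). The difference was -0.66 (exact two-sided permutation test, p = 0.048, adjusted over 7 ratios p = 0.33). With miR-133a-3p the log2 ratio averaged 1.88 ± 0.24 in knockouts and 1.75 ± 0.29 in controls (exact permutation test, p = 0.47, adjusted p = 0.82). With miR-499-5p it averaged 0.90 ± 0.25 in knockouts and 0.91 ± 0.66 in controls (exact permutation test, p = 0.98), and the highest ratio was in control replicate 3. With 5 libraries against 5 the smallest p of this test is 0.0079.

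miR-22-3p shared its pattern with many other miRNAs. Among 140 miRNAs with a mean of at least 100 CPM, leaving out both arms of miR-22, 27 had an r of at least 0.7 with it and 18 had an r of -0.7 or lower. Rows with the same counts were each counted, here and in the other counts over the 140. They include miR-486a-5p and miR-486b-5p among the 27, and miR-199a-3p and miR-199b-3p among the 18. miR-208a-3p, miR-133a-3p and miR-133b-3p ranked 13, 15 and 18 of these 140, so miRNAs outside the muscle list followed miR-22-3p at least as closely. All of these r values share the same 10 libraries and their scaling, and are given as a description. The first principal component of the 140 miRNAs held 68.6% of their variance on the log2 CPM scale, and miR-22-3p had a correlation of 0.78 with it in size. This component was examined after seeing the data.

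**Figure D4:**
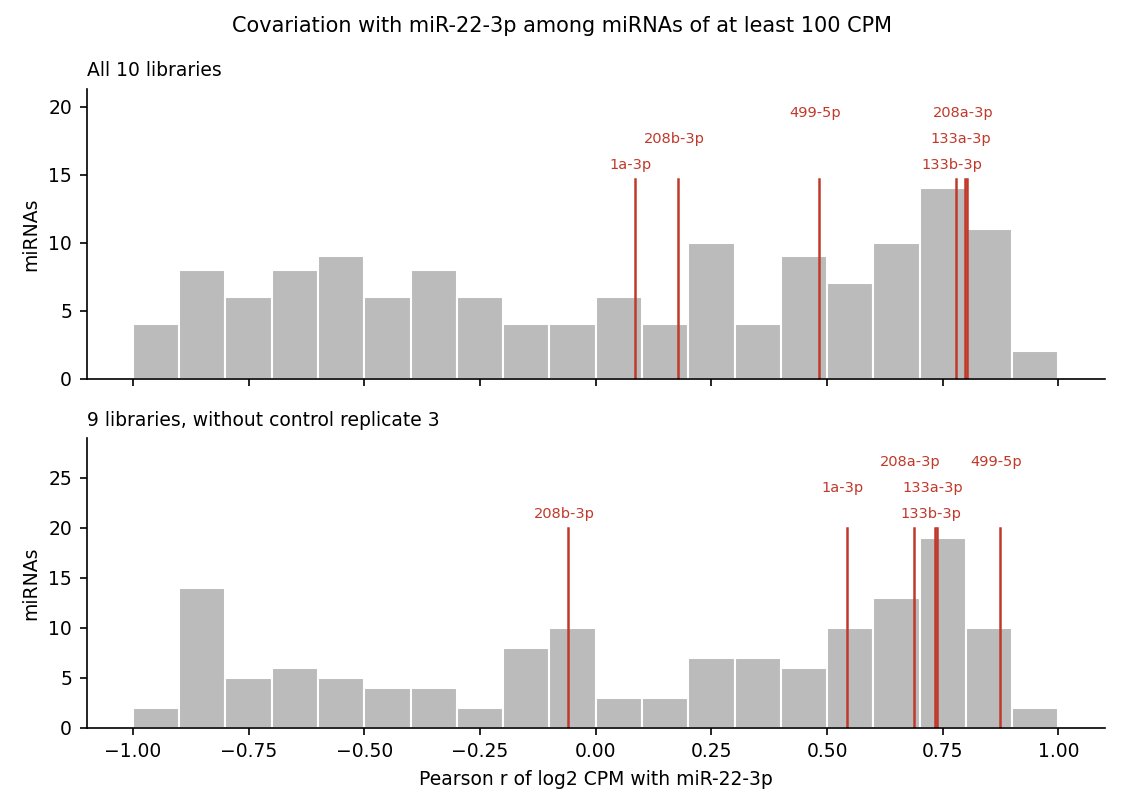
Distribution of Pearson's r of log2 CPM with miR-22-3p over 140 miRNAs of at least 100 CPM, in all 10 libraries (top) and without control replicate 3 (bottom). Grey bars count miRNAs and red lines mark the 6 muscle miRNAs among them. miR-499-5p stands at 0.48 in the top panel and 0.87 in the bottom panel.

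The 5 miRNAs with the highest r over the 10 libraries were miR-328-3p (0.91), miR-101a-3p (0.91), miR-30b-5p (0.90), miR-145a-5p (0.89) and miR-29c-3p (0.86). miR-328-3p was at 526, 540, 539, 813 and 546 CPM in knockout replicates 1 to 5, against 545, 582, 817, 692 and 694 CPM in control replicates 1 to 5. It was the highest in the same pair of libraries, knockout replicate 4 and control replicate 3, and its r was 0.93 without control replicate 3 and 0.88 without both. miR-101a-3p, known to restrain fibrosis in the rat heart, was at 366 to 766 CPM in knockouts and 396 to 1208 CPM in controls, with the highest level in control replicate 3. miR-145a-5p, a smooth muscle miRNA, fell to an r of 0.67 without control replicate 3. The other smooth muscle marker, miR-143-3p, had an r of only 0.42 over the 10 libraries and ranked 53 of the 140.

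The 3 miRNAs with the lowest r were let-7i-5p (-0.95), miR-1839-5p (-0.95) and let-7e-5p (-0.93). let-7i-5p, of the let-7 family known to restrain growth and cell division, was at 9123, 10839, 11701, 7580 and 11133 CPM in knockout replicates 1 to 5, against 9641, 10339, 4881, 10393 and 8293 CPM in control replicates 1 to 5. It was lowest where miR-22-3p was highest, in control replicate 3, and lowest among knockouts in replicate 4. Without control replicate 3 its r was -0.86, and without both -0.75. let-7e-5p was at 1992 to 3411 CPM in knockouts and 1484 to 2867 CPM in controls, and its r without both libraries was -0.62. miR-1839-5p was at 325 to 448 CPM in knockouts and 217 to 427 CPM in controls, and kept an r of -0.90 without both.

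The sequences of the miRNAs at both ends of this order, as far as they matched RefSeq, are shown to compare their seeds with that of miR-22-3p.
miR-101a-3p: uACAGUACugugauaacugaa
miR-29c-3p: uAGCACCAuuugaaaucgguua
let-7i-5p: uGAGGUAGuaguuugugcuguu
let-7e-5p: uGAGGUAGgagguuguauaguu
miR-1839-5p: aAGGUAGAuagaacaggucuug
let-7i-5p and let-7e-5p share 1 seed, and no seed here is that of miR-22-3p. The share of G and C was 45.5% in miR-22-3p, 33.3% in miR-101a-3p, 36.4% in miR-29c-3p and 40.9% in each of the 3 miRNAs with the lowest r. As for position, these 5 lie on chromosomes 4, 1, 10, 17 and 7.

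Other miRNAs linked to hypertrophy gave no passing member either. Of 14 miRNAs known to rise in or promote hypertrophy, 7 had a higher and 7 a lower mean in knockout hearts, with 0 past an adjusted p of 0.05 and a median log2 fold change of 0.00. Over all 457 miRNAs the median was 0.03 and 214 (46.8%) had a lower mean in knockouts. The unadjusted p was under 0.05 for 1 of the 14, against 6.35% of all. The 2 with the smallest p were miR-212-3p, which drives hypertrophy in mice, and miR-208b-3p. miR-212-3p averaged 31.7 ± 4.20 CPM in knockouts and 39.8 ± 3.84 CPM in controls (SD, n = 5 each), a log2 fold change of -0.33 with an adjusted p of 0.64 in edgeR's test. miR-208b-3p averaged 231 ± 57.7 CPM in knockouts and 181 ± 41.4 CPM in controls, a log2 fold change of 0.35 with an adjusted p of 0.64.

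Of 11 miRNAs known to restrain hypertrophy, 2 had a higher and 9 a lower mean in knockout hearts, with 0 past the threshold and a median log2 fold change of -0.36, beside 0.03 over all 457 miRNAs, of which 46.8% had a lower mean. The unadjusted p was under 0.05 for 3 of the 11, against 6.35% of all. Among the 3 were miR-133a-3p and miR-133b-3p, between which reads may be split, so those 2 are not separate. Whether the other members of the list vary apart from one another was not tested. The 2 with the smallest p were miR-133a-3p, at 1177 ± 211 CPM in knockouts and 1620 ± 340 CPM in controls, and miR-30a-5p, at 19295 ± 5570 CPM in knockouts and 29529 ± 6892 CPM in controls (SD, n = 5 each). Their log2 fold changes were -0.46 and -0.61, each with an adjusted p of 0.64 in edgeR's test.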

How the data were processed

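The authors deposited raw read counts of 1139 mature miRNAs in 10 libraries, and a linear signal, in which each deposited count is divided by 1 factor per library. That factor equals the DESeq2 size factor within a relative tolerance of 1e-09. GRCm38, cutadapt 1.10, Bowtie, STAR and DESeq2 are named, without roles, in the submitters' processing notes. How multi-mapping reads were assigned, and whether molecular identifiers were counted, is not given in the sources used here, so intervals do not cover amplification. Per the labels' protocols, RNA came from frozen hearts and libraries from a NEXTflex small RNA kit.

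Columns were matched to libraries by title. Knockout was compared with control with edgeR 4.0.16 (R 4.3.3; TMM factors, filterByExpr, quasi-likelihood test, genotype as the only term) over the 457 miRNAs kept, which held 99.99% of counts, with Benjamini-Hochberg adjustment and a threshold of 0.05. Of these, 15 rows repeat the counts of another row. Log2 CPM used a prior count of 2. Arm and muscle ratios used a pseudocount of 0.5 and exact permutation of the 252 splits. Correlations used 100000 resamples (seed 1; numpy 2.4.6, scipy 1.17.1). Alternatives were DESeq2 1.42.0, limma 3.58.1, other scalings and filters, a replicate block and leaving out each library. Fits were tested on simulated data. Any pair of libraries of 1 group differed beyond sampling noise (chi-square over its degrees of freedom at least 210 in knockouts and 108 in controls), so no library was merged with another as a repeated deposit, which does not show that they come from separate animals.

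The miRNA and the lists were chosen with earlier results of these data known. Named miRNAs are both arms of miR-22, 7 muscle miRNAs, the 2 next above and 2 next below in mean CPM, the 5 with the highest and 3 with the lowest r, and the 2 of each hypertrophy list with the smallest p. miR-30b-5p and miR-29c-3p also stand beside control replicate 3 because their ratios came next. In RefSeq, 951 of the 1139 names matched a mature sequence.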

Additional observations from a re-analysis of the deposited data

Results flagged for a closer look

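For 33 values (23 named miRNAs, the share, rank and arm ratio of miR-22-3p, and its log2 ratio to 7 muscle miRNAs) the most extreme library of each group was compared with the library nearest to it, and the gap was divided by the range of the 5. This quotient passed its 95% critical value of 0.71 in 11 of 66 groups, where chance flags about 1 in 20, or 3.3. Several of the values share reads of miR-22-3p and are not separate. The 5 miRNAs with the highest and 3 with the lowest r were also picked by their relation to miR-22-3p in these same libraries. The 11 therefore cannot be judged against the 3.3.

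Knockout replicate 4 stood apart from the other knockouts for 3 miRNAs. It held 6183 CPM of miR-22-3p against 3581 to 4278 CPM in the others, 813 CPM of miR-328-3p against 526 to 546 CPM, and 3815 CPM of miR-499-5p against 1820 to 2396 CPM. Knockout replicate 2 held 7103 CPM of miR-125b-5p against 5895 to 6180 CPM in the other knockouts.

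Control replicate 3 stood apart from the other controls for 7 values. Its share of miR-22-3p was 1.06% of counts against 0.390% to 0.468%, its rank was 18 against 28 to 29, and its arm ratio was 25.0 against 10.4 to 13.4. Its log2 ratio of miR-22-3p to miR-133a-3p was 2.25 against 1.52 to 1.71, and that to miR-206-3p was 9.73 against 7.80 to 8.03. It held 1484 CPM of let-7e-5p against 2716 to 2867 CPM, and 3121 CPM of miR-25-3p against 3735 to 3917 CPM. The level of miR-22-3p itself in control replicate 3, at 9362 CPM, was not flagged among the TMM-scaled CPM values.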

How the results depend on the processing

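The count of miRNAs past the threshold was 0 in all 23 alternative fits, and miR-22-3p had a lower mean in knockout in all 24 of its alternatives, with log2 fold changes from -0.52 to -0.08 and adjusted p values from 0.26 to 0.99. miR-22-5p was lower in all 23, from -0.25 to -0.06. The count at an unadjusted p under 0.05, 29 of 457, was 102 of 1105 without a low-count filter, 14 with library totals only, 99 with sample quality weights, 47 without control replicate 3 and knockout replicate 4, and 6 to 84 with 1 library left out. With the replicate block the log2 fold change of miR-22-3p was -0.32 (adjusted p = 0.49) and 72 miRNAs had an unadjusted p under 0.05, while no call changed. Same-number libraries had deviations that correlated between -0.12 and 0.45, 4 of 10 libraries were closest to the library of their own number, and what a number marks is not stated. With 5 pairs the exact sign-flip test cannot go below 0.0625.

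With 1 library left out, the arm difference ran from -0.23 to 0.10 on the log2 scale and the difference in share from -0.14 to 0.0268 percentage points, turned in sign without control replicate 3. The 3 called muscle relations became 0 by Spearman's rho and 0 without the 2 farthest libraries, and ran from 0 (without control replicate 3) to 4 with 1 library left out. The fourth, without control replicate 5, was miR-206-3p (r of -0.75). Among relations not called, r with miR-1a-3p turned to -0.013 on deviations from group means, -0.29 with library totals only and -0.26 without the 5 most abundant miRNAs, and ran from -0.017 to 0.54 with 1 library left out. The rank correlation with miR-208b-3p (Spearman) was -0.067, and its Pearson r ran from -0.06 to 0.34 with 1 library left out. Without control replicate 3 and knockout replicate 4, r was 0.60 with miR-1a-3p, -0.71 with miR-208b-3p and 0.24 with miR-206-3p, and the log2 ratio differences to miR-1a-3p and miR-499-5p were 0.13 and 0.31. With 1 library left out the ratio differences ran from -0.29 to 0.19 for miR-1a-3p, -0.16 to 0.26 for miR-499-5p and -0.025 to 0.23 for miR-208a-3p. The causes were not tested. Counting error was small for miR-22-3p, with at least 39903 reads per library, whereas miR-206-3p had as few as 94. Whether library depth bears on the level of miR-22-3p in other ways was not tested.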
